A study of Mus musculus with 23 samples.

Results

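The comparison of 3xTg with WT hippocampus while both strains received the same inhibitor of stearoyl-CoA desaturase (SCD) was taken from 7 of the 23 sequenced hippocampi: 4 from 3xTg mice given the inhibitor (3xTg-S) and 3 from WT mice given it (WT-S). The members are simply every library with those labels, and all genes of the table entered, so no measured value chose them. It asks which transcripts still set the strains apart when the drug is present in both. The 3xTg strain carries human APPSwe and tauP301L transgenes, both driven by a Thy1.2 regulatory element of the mouse that is active in neurons, together with a knock-in allele that is not described here. The WT mice, C57BL/6J x 129S1, are its background strain and carry none of these alleles. All mice were bred in-house. All 7 mice were female, were 10 months old at dissection, and had received 80 µM of the SCD inhibitor in 0.8% DMSO into the lateral ventricle for 28 days from an osmotic pump. The other groups serve only to show where this contrast differs: WT-D and 3xTg-D (n = 4 each) were 10 months old and had the same pump with the 0.8% DMSO vehicle alone, and WT-8M and 3xTg-8M (n = 4 each) were 8 months old and had no infusion.

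SCD enzymes place a double bond in saturated fatty acids and so make monounsaturated ones such as oleate, which enter membranes, triglycerides and cholesterol esters. In the Alzheimer's disease brain and its mouse models, microglia, astrocytes and complement respond to amyloid, and synapses are lost. Oligodendrocytes wrap axons in myelin, a membrane rich in cholesterol and galactolipids. In whole-hippocampus RNA a difference may come from more or fewer cells of a type or from more or less RNA in each cell, and these cannot be told apart here.

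The 7 libraries held 12992547 to 16208024 reads assigned to genes, and 23123 to 23990 genes had at least 1 read. Levels are given as CPM, a gene's read count per 1000000 reads that the library has on genes, and a gene was called when its adjusted p in the edgeR quasi-likelihood test was under 0.05. Of 15664 genes tested, 206 were called (1.32%), of which 96 were higher in 3xTg-S (0.613%) and 110 lower (0.702%). In 202 of the 206 the lowest library of one strain lay above the highest of the other, which held for 10.6% of all genes tested. The median log2 fold change was 0.96 among the genes called higher and -1.23 among those called lower, against 0.00 over all genes tested, and 104 genes changed by more than 2-fold. By annotation, 152 of the called genes included a protein-coding transcript and 27 were pseudogenes. Of 352 pseudogenes tested 7.67% were called, and of 13927 protein-coding genes 1.09%. The WT-S library 2 had a summed level of 398.3 CPM over 13 choroid plexus genes, and 3xTg-S library 2 had 274 CPM. In 3xTg-S library 2 longer transcripts were also lower, with a slope of -0.25 on the log2 scale for each 10-fold of transcript length, against -0.05 to 0.08 in the other libraries of the contrast. Without WT-S library 2 the test called 146 genes, and without 3xTg-S library 2 it called 170. The count moved by more than 1.5 times when 3xTg-S library 1 (105), 3xTg-S library 4 (114) or WT-S library 3 (135) was left out.

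**Figure D1:**
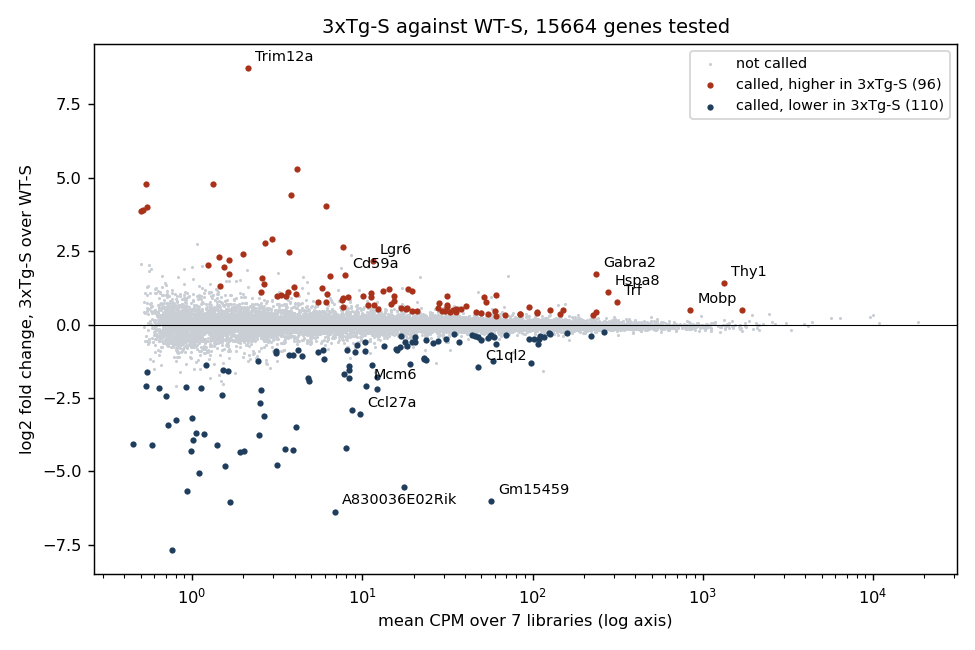
Each point is 1 of the 15664 genes tested, with its mean CPM over the 7 libraries on a log axis and its log2 fold change in 3xTg-S over WT-S on the vertical axis. The 96 genes called higher and 110 called lower are coloured, and Thy1 and Mobp lie toward the abundant end while Gm15459 and A830036E02Rik lie far below 0.

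Thy1 is a glycoprotein of the neuronal surface, and its mouse regulatory element drives both transgenes. It was called higher in 3xTg-S. Its level was 634, 648 and 753 CPM in the WT-S libraries and 1901, 2009, 1323 and 2054 CPM in the 3xTg-S libraries, so that the lowest 3xTg-S library stood well above the highest WT-S library. The mean was 678 ± 64.8 CPM (SD, n = 3) in WT-S and 1822 ± 339 CPM (SD, n = 4) in 3xTg-S (log2 fold change 1.42, SE 0.13, edgeR adjusted p = 9.98e-05). App, the amyloid precursor protein gene, read 1642, 1724 and 1744 CPM in WT-S and 2200.3, 2018, 1926 and 2368 CPM in 3xTg-S. The groups did not overlap, but App missed the threshold (log2 fold change 0.32, SE 0.08, adjusted p = 0.0791), and it passed under 5 of 13 alternatives: 3xTg-S library 3 left out, DESeq2's likelihood ratio test, all 15 libraries in one fit, the trend of length and GC removed, and no filter on low counts. Mapt, which encodes tau, had a log2 fold change of 0.12 (SE of 0.05 and an adjusted p of 0.484). How far reads of the human transgenes align to the mouse App and Mapt genes was not tested. Nor was it tested how far the reads counted for Thy1 come from the transgenes.

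Part of the myelin list was higher in 3xTg-S. Of 18 genes of compact myelin and its lipids, 7 were called higher (background 0.613%) and none lower. At an unadjusted p under 0.05, 12 were higher (background 5.43%), and the median log2 fold change of the list was 0.28. The summed level of the 18 genes was 4597, 5873 and 5918 CPM in WT-S and 7303, 7938, 6872 and 7077 CPM in 3xTg-S, so every 3xTg-S library lay above every WT-S library. Trf, the iron carrier transferrin that oligodendrocytes make, had the largest of these differences. Its level was 193, 238 and 235 CPM in WT-S and 368, 388.3, 401 and 356 CPM in 3xTg-S. The mean was 222 ± 25.1 CPM (SD, n = 3) in WT-S and 378 ± 20.1 CPM (SD, n = 4) in 3xTg-S (log2 fold change 0.77, SE 0.08, edgeR adjusted p = 0.000205). The call of Trf held under all 13 alternatives.

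Mobp, a structural protein of the myelin sheath, was at 570.5, 721 and 759.9 CPM in WT-S and 937, 1016, 978 and 909.6 CPM in 3xTg-S (log2 fold change 0.49, SE 0.09, adjusted p = 0.0156). WT-S library 1 was the lowest of the 7 and the strains stayed apart. Cldn11, which forms the tight junctions between myelin layers, rose from 102 ± 7.95 to 143 ± 11.6 CPM (adjusted p = 0.0058). The sulfatide and galactolipid enzymes Fa2h and Ugt8a rose too, Fa2h from 21.9 ± 4.17 to 32.3 ± 2.03 CPM (adjusted p = 0.0275) and Ugt8a from 49.5 ± 7.57 to 67.8 ± 4.44 CPM (adjusted p = 0.0441). Mal, a proteolipid of myelin vesicles, rose from 195 ± 17.5 to 247 ± 18.3 CPM (adjusted p = 0.0397).

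Other myelin genes did not pass. Mbp, the myelin basic protein gene, had a log2 fold change of 0.37 (SE of 0.10 and an adjusted p of 0.114), whereas Mog, on the outermost layer, had 0.13 (SE 0.11) and Opalin -0.07 (SE 0.12). Among 15 genes of the oligodendrocyte lineage, 1 was called, and it was lower (background 0.702%). This was Zfp488, a transcription factor of the lineage, at 4.93, 5.7 and 5.15 CPM in WT-S and 3.27, 2.39, 2.49 and 2.16 CPM in 3xTg-S. The mean was 5.26 ± 0.398 CPM (SD, n = 3) in WT-S and 2.58 ± 0.481 CPM (SD, n = 4) in 3xTg-S (log2 fold change -1.03, SE 0.18, edgeR adjusted p = 0.0146). The median log2 fold change of that list was 0.02, and the lineage factors Olig2, Sox10 and Myrf had values of -0.05, 0.05 and -0.08. The number of myelin genes called depended on single libraries: it was 3 without 3xTg-S library 1, 2 or 4, 4 without WT-S library 3 and 5 to 7 without any of the others. It was 3 when all 15 libraries of 10 months shared one fit, and 1 with blocks of consecutive animal numbers.

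In vehicle mice the same list had no call by edgeR and a median log2 fold change of 0.09, and in uninfused mice of 8 months the median was 0.04, also with no call. The summed myelin level was 4913 to 6298 CPM in WT-D and 4493 to 6935 CPM in 3xTg-D, so these groups overlapped. The difference between the strain effects under inhibitor and under vehicle did not pass for any member: the smallest unadjusted interaction p in the list was 0.0096, for Fa2h, and no adjusted interaction p in the list was under 0.05. A drug-dependent strain difference in myelin genes was therefore not detectable with these mice. The endothelial list, a marker of vessels in the dissection, had no call of 19, none at an unadjusted p under 0.05, and sums of 634 to 722 CPM in WT-S and 654 to 761 CPM in 3xTg-S. The list of 12 genes of the thalamus and neighbouring regions had no call either and summed to 153 to 179 CPM in WT-S and 139 to 180 CPM in 3xTg-S.

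**Figure D2:**
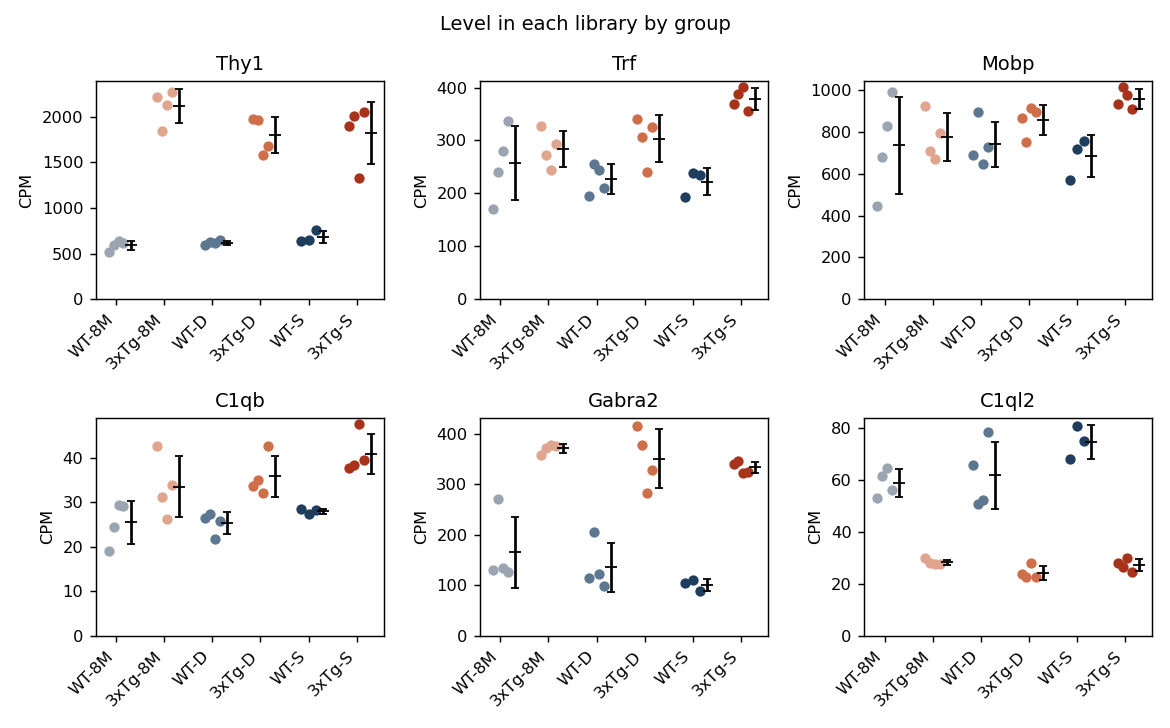
CPM of 6 genes in every library of the series, by group, with mean ± SD beside the points. Thy1, Gabra2 and C1ql2 separate the strains in all 3 pairs of groups, while Trf and Mobp separate them without overlap only in the inhibitor pair at the right.

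Few microglial genes passed the test. Of 14 genes of resting microglia 2 were called, both higher (background 0.613%), and 13 had a positive log2 fold change. At an unadjusted p under 0.05, 11 were higher (background 5.43%). The list median was 0.41, against 0.00 over all genes tested. Siglech, a sialic acid-binding receptor of microglia, was at 16, 14.6 and 12.9 CPM in WT-S and 18.7, 21.2, 23.2 and 22.1 CPM in 3xTg-S. The mean was 14.5 ± 1.55 CPM (SD, n = 3) in WT-S and 21.3 ± 1.91 CPM (SD, n = 4) in 3xTg-S (log2 fold change 0.55, SE 0.11, edgeR adjusted p = 0.0314). The purinergic receptor gene P2ry12, by which microglia sense nucleotides, had a log2 fold change of 0.35 (SE of 0.08 and an adjusted p of 0.0638), and Tmem119 had 0.41 (SE of 0.12 and an adjusted p of 0.183). Both calls were lost without 3xTg-S library 3, 3xTg-S library 4, WT-S library 2 or WT-S library 3, and when all 15 libraries of 10 months shared one fit. They were also lost with blocks of consecutive animal numbers. Without 3xTg-S library 1 the list had 1 call and without 3xTg-S library 2 it had 4.

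Complement was the list with most calls after myelin, with 4 of 18 called, all higher, against 0.613% of all genes tested. C1qa, C1qb and C1qc encode the 3 chains of C1q, the first component of the classical pathway, and lie side by side on chromosome 4. C1qb was at 28.5, 27.3 and 28.1 CPM in WT-S and 37.8, 38.4, 47.5 and 39.4 CPM in 3xTg-S. The mean was 28 ± 0.583 CPM (SD, n = 3) in WT-S and 40.8 ± 4.55 CPM (SD, n = 4) in 3xTg-S (log2 fold change 0.54, SE 0.09, edgeR adjusted p = 0.012). C1qa and C1qc had log2 fold changes of 0.44 (SE of 0.10 and an adjusted p of 0.0468) and 0.44 (SE of 0.08 and an adjusted p of 0.0163). The 3 chains moved by nearly the same amount, and 3xTg-S library 3 was the highest for each. Cd59a, which blocks the terminal membrane attack complex, rose more, from 4.0, 3.9 and 2.61 CPM in WT-S to 11, 14.1, 9.94 and 10.1 CPM in 3xTg-S. The mean was 3.5 ± 0.774 CPM (SD, n = 3) in WT-S and 11.3 ± 1.91 CPM (SD, n = 4) in 3xTg-S (log2 fold change 1.69, SE 0.19, edgeR adjusted p = 0.000399). C4b, an acute-phase component made by astrocytes and oligodendrocytes, had a log2 fold change of 0.61 (SE of 0.19 and an adjusted p of 0.195) and C3 of 0.76 (SE of 0.38 and an adjusted p of 0.53). Without WT-S library 2 or WT-S library 3 the number of complement genes called was 1, as it was with blocks of consecutive animal numbers.

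Genes of disease-associated microglia had no call of 19 by edgeR, 5 higher at an unadjusted p under 0.05 (background 5.43%), and none by DESeq2's likelihood ratio test. Trem2, a lipid-sensing receptor, was at 8.72 ± 1.11 CPM in WT-S and 11.1 ± 1.35 CPM in 3xTg-S (adjusted p = 0.386), and its adaptor Tyrobp was at 8.52 ± 1.65 and 12.6 ± 1.06 CPM (adjusted p = 0.102). The lysosomal protease genes Ctsb and Ctsd had log2 fold changes of -0.01 and 0.09. Another cathepsin gene, outside the lists, Ctss, the cysteine protease of antigen-presenting cells, was called; it was singled out after its values were seen. It was at 78.5, 69.5 and 70.8 CPM in WT-S and 102, 101, 119.7 and 125 CPM in 3xTg-S, with no overlap (log2 fold change 0.62, SE 0.09, adjusted p = 0.00603). The chemokine receptor gene Ccr1 was low but called, and rose from 0.563 ± 0.266 to 2.26 ± 0.765 CPM (adjusted p = 0.0271). Ighm, the immunoglobulin mu heavy chain, rose from 10.5 ± 1.41 to 24.7 ± 3.25 CPM (adjusted p = 0.000238). Cxcl13, a chemokine for B cells, was at 0, 0.0721 and 0.798 CPM in WT-S and 5.0, 1.13, 11.5 and 8.18 CPM in 3xTg-S (adjusted p = 0.0343), with the 3xTg-S mice widely spread. Blood genes, a sign of blood left in the tissue, summed to 34.9 to 41.8 CPM in WT-S and 31.3 to 214 CPM in 3xTg-S, the highest being library 2. The part of blood in the immune transcripts was not tested.

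Antigen presentation by MHC class I had 1 call of 20, higher in 3xTg-S (background 0.613%). B2m, the light chain shared by all class I molecules, was at 92.3, 89 and 83.1 CPM in WT-S and 118, 112, 106 and 138 CPM in 3xTg-S. The mean was 88.1 ± 4.63 CPM (SD, n = 3) in WT-S and 118 ± 13.8 CPM (SD, n = 4) in 3xTg-S (log2 fold change 0.42, SE 0.09, edgeR adjusted p = 0.0448). The call was lost under 8 of 13 alternatives, among them all 15 libraries in one fit, the trend of length and GC removed, and 3xTg-S library 1, 2 or 4 or WT-S library 2 or 3 left out. Of the heavy chains, H2-D1 and H2-K1 had log2 fold changes of 0.30 (SE 0.13) and 0.09 (SE 0.11), while H2-Q6 had -0.97 (SE of 0.28 and an adjusted p of 0.161). The class I genes are close relatives and differ between mouse strains, so reads may be split among them and their values are uncertain.

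Interferon-stimulated genes had no call of 21 by edgeR or by DESeq2's likelihood ratio test, although 20 had a positive log2 fold change. At an unadjusted p under 0.05, 11 were higher (background 5.43%). The list median was 0.46 under inhibitor, 0.97 in vehicle mice and 0.63 at 8 months, with 1, 0 and 0 calls in the vehicle, inhibitor and 8-month contrasts. Ifit1, a sensor of foreign RNA caps, was at 2.08, 3.32 and 3.41 CPM in WT-S and 9.62, 3.52, 3.66 and 7.98 CPM in 3xTg-S (adjusted p = 0.253). Of the 4 3xTg-S mice, libraries 2 and 3 stood at about the highest WT-S level and libraries 1 and 4 well above it. The summed level of the list was 142 to 182 CPM in WT-S, 169 to 265 CPM in 3xTg-S and 142 to 375 CPM in 3xTg-D.

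Reactive astrocyte genes had no call of 18 by edgeR and 1 by DESeq2's likelihood ratio test. At an unadjusted p under 0.05, 8 were higher (background 5.43%) and 1 lower (background 5.18%). Gfap, the intermediate filament of astrocytes, was at 445 ± 45.6 CPM in WT-S and 539 ± 87.7 CPM in 3xTg-S (log2 fold change 0.28, adjusted p = 0.412). Vim, another intermediate filament, had a log2 fold change of 0.42 (adjusted p = 0.253). Serpina3n, an acute-phase protease inhibitor, went the other way, at 52.4, 239.9 and 268 CPM in WT-S and 55.7, 52.3, 85.8 and 57.2 CPM in 3xTg-S (log2 fold change -1.57, adjusted p = 0.095), with WT-S library 1 at the 3xTg-S level. The homeostatic astrocyte list had a median of 0.05 and no call of 16, with 1 higher at an unadjusted p under 0.05.

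In each of the neuronal lists at most 2 genes passed the test, which 1.32% of all genes tested passed. Gabra2, a subunit of GABA-A receptors, had the smallest p of all 15664 genes. It was at 105, 111 and 88.6 CPM in WT-S and 340.1, 347, 323 and 325 CPM in 3xTg-S. The mean was 101 ± 11.6 CPM (SD, n = 3) in WT-S and 334 ± 11.7 CPM (SD, n = 4) in 3xTg-S (log2 fold change 1.71, SE 0.08, edgeR adjusted p = 1.36e-06). No other gene of 22 in GABA synthesis, transport and reception was called, and 19 of the 22 had a negative log2 fold change. C1ql2, a synaptic organiser that dentate granule cells release at their mossy fibre endings, fell most among genes of the hippocampal subfields. It was at 68.3, 81 and 74.9 CPM in WT-S and 28.1, 26.7, 30.2 and 24.5 CPM in 3xTg-S. The mean was 74.7 ± 6.38 CPM (SD, n = 3) in WT-S and 27.4 ± 2.41 CPM (SD, n = 4) in 3xTg-S (log2 fold change -1.45, SE 0.08, edgeR adjusted p = 3.13e-06). Wfs1, an endoplasmic reticulum protein that marks CA1 pyramidal cells, fell from 130.1 ± 14.7 to 92.4 ± 3.86 CPM (adjusted p = 0.00785). Other subfield markers did not pass, among them Prox1 of granule cells with a log2 fold change of -0.25 (SE of 0.11 and an adjusted p of 0.43), Calb1 with 0.05 (SE 0.07) and Fibcd1 of CA1 with -0.02 (SE 0.09).

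Synaptic vesicle genes had no call of 32 by edgeR and 1 lower by DESeq2's likelihood ratio test. Of the 32, 29 had a negative log2 fold change and 10 were lower at an unadjusted p under 0.05 (background 5.18%), but the sizes were small, with a list median of -0.08 here and -0.08 in vehicle mice. Rims2, a scaffold of the release site, had a log2 fold change of -0.23 (SE of 0.07 and an adjusted p of 0.169), and Snap25, of the fusion complex, of 0.06 (SE 0.08). The summed level was 15701 to 15894 CPM in WT-S and 14856 to 15368 CPM in 3xTg-S, which did not overlap. Glutamate receptors and their scaffold had no call of 38 by edgeR or DESeq2, and a median of -0.07. At an unadjusted p under 0.05, 4 were lower (background 5.18%) and 2 higher (background 5.43%). Their sums overlapped, at 12306 to 13473 CPM in WT-S and 10880 to 13039 CPM in 3xTg-S.

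Of the other neuronal genes called, Cntnap2, an adhesion molecule of the neurexin family, fell from 177 ± 3.55 to 145 ± 7.67 CPM (adjusted p = 0.0468). It was the only call among 23 Alzheimer risk genes (background 0.702% lower). The call was lost under 9 of 13 alternatives, among them each library left out. Scg2, a secretogranin of dense-core vesicles, fell by 0.25 on the log2 scale (SE of 0.05 and an adjusted p of 0.0446), and Kcnip3, a calcium sensor that binds potassium channels, fell from 64.3 ± 8.2 to 47.5 ± 2.31 CPM (adjusted p = 0.0355). Vgf, a neuropeptide precursor singled out after its values were seen, fell from 137 ± 8.87 to 102 ± 12 CPM (adjusted p = 0.0353). Among 33 voltage-gated channel genes 1 was called, and it was higher (background 0.613%). This was Scn2b, a beta subunit of sodium channels, which rose from 196 ± 24.4 to 265 ± 4.03 CPM (adjusted p = 0.0235). Its neighbour Scn4b, outside the list and also singled out afterwards, fell from 32.3 ± 4.21 to 21 ± 1.12 CPM (adjusted p = 0.00377). The clustered protocadherins, cell-surface molecules that give single neurons their identity, had 6 calls among 44 beta and gamma genes tested, all lower (background 0.702%). Of the 44, 33 were below 0. This family was grouped after its values were seen. Pcdhga11 was at 22.6, 22.4 and 21.2 CPM in WT-S and 2.84, 4.91, 6.21 and 5.47 CPM in 3xTg-S. The mean was 22.1 ± 0.771 CPM (SD, n = 3) in WT-S and 4.86 ± 1.45 CPM (SD, n = 4) in 3xTg-S (log2 fold change -2.19, SE 0.19, edgeR adjusted p = 6.4e-05). The gamma genes share their constant exons, so reads there cannot be assigned to one of them.

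No gene of fatty acid desaturation, the step that the drug blocks, passed the test between the strains. Of 9 desaturase genes tested none was called by edgeR or by DESeq2's likelihood ratio test, and the median was -0.07. At an unadjusted p under 0.05, 1 was higher (background 5.43%) and 1 lower (background 5.18%). Scd1 was at 135, 169 and 152 CPM in WT-S and 132, 132, 123 and 138 CPM in 3xTg-S. Scd2, the main brain form, was at 1300.0, 1546 and 1463 CPM in WT-S and 1371, 1376, 1405 and 1406 CPM in 3xTg-S. The groups overlapped for both genes (for Scd1, log2 fold change -0.22, SE 0.07, adjusted p = 0.276). Fads1 and Fads2, which build polyunsaturated fatty acids, and their relatives Fads3 and Fads6 had log2 fold changes of -0.09, -0.10, 0.17 and -0.07, and the minor form Scd3 had -0.27 (SE 0.21). The ceramide desaturases Degs1 and Degs2 had 0.04 and -0.02. Since the sequencing reads transcript levels, it does not measure the activity of the enzyme that the drug blocks.

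Cholesterol synthesis had no call of 23 by edgeR and 1 higher by DESeq2's likelihood ratio test, with a median of 0.11. At an unadjusted p under 0.05, 3 were higher, where the background was 5.43% higher and 5.18% lower. Fatty acid synthesis and elongation had no call of 26 by edgeR or DESeq2, 1 higher and 2 lower at an unadjusted p under 0.05, and triglyceride and lipid droplet genes no call of 25 by either test, with 1 higher. Fatty acid oxidation and PPAR targets had no call of 31 and apolipoproteins and lipid transport none of 20, by either test, with 2 genes higher in each and 1 lower among the apolipoproteins and lipid transport genes at an unadjusted p under 0.05. The medians of these 4 lists lay between 0.00 and 0.03. ER stress genes had no call of 24 by edgeR or DESeq2, 5 higher at an unadjusted p under 0.05 (background 5.43%), and a median of 0.12.

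**Figure D3:**
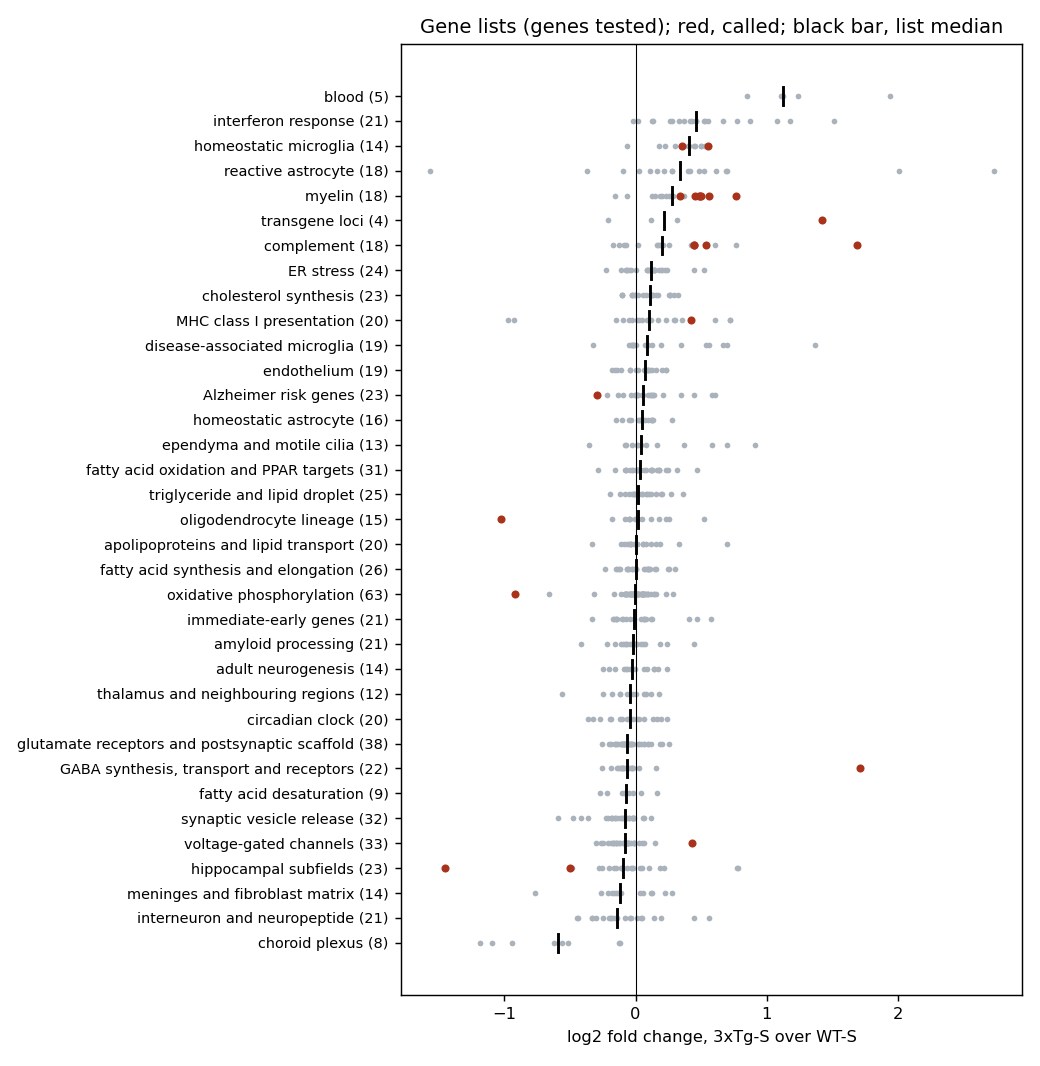
Log2 fold change in 3xTg-S over WT-S of every tested gene in each list, with the number tested in brackets, called genes in red and the list median as a black bar. Myelin and complement hold more red points than any other list, 7 and 4, the interferon list is shifted to the right without any, and Gabra2 stands alone in the GABA list.

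Several called genes lay next to each other on the chromosomes. The 10 Mb windows with 4 or more called genes numbered 14, and they held 80 of the 206 called genes (38.8%) and 8.17% of the genes tested, a difference that the choice of windows by their calls fixes. By chromosome, chromosome 9 had 33 calls among 899 genes tested (3.67%) and chromosome 13 had 21 among 592 (3.55%), whereas chromosome 11 had 5 among 1208 (0.414%). The largest group, at 60 to 70 Mb of chromosome 13, held 11 calls among 72 genes, among them the zinc finger genes Zfp429, at 2.39, 2.67 and 2.47 CPM in WT-S and 0.123, 0.133, 0.146 and 0.338 CPM in 3xTg-S, and Zfp457, at 0.308, 0.505 and 0.798 CPM and 2.84, 1.79, 2.71 and 2.64 CPM. Zfp429 was lower in 3xTg-S and Zfp457 higher, so genes of a single window moved both ways. Zinc finger genes of this kind are related in sequence, and reads may be split among them, which was not tested.

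Of 11 Trim genes in a cluster on chromosome 7, 5 were tested and 3 were called, all higher in 3xTg-S (background 0.613%). Trim12a and Trim30d were at or near 0 in WT-S, and Trim34a was low there. Trim proteins of this group, such as TRIM5, recognise retroviral capsids or temper innate immune signalling, and their genes are known to respond to interferon. Trim12a (chr7:104299894-104315466, GRCm38) had no read in any WT-S library and 4.01, 3.12, 4.09 and 3.65 CPM in 3xTg-S, at least 50.3-fold higher when 3 reads over the WT-S group are taken as the floor. Trim30d (chr7:104470014-104507849) had 3 reads in all WT-S libraries together and 135 in 3xTg-S, a ratio of 30.6 with an exact 95% counting interval of 10.3 to 150.3. Trim34a, which was singled out after its values were seen, was at 0.462, 0.361 and 0.508 CPM in WT-S and 3.27, 1.66, 1.61 and 2.23 CPM in 3xTg-S (adjusted p = 0.00767). Neighbours of the cluster did not pass: Trim12c, between them, had a log2 fold change of -0.41 (adjusted p = 0.359) and Trim30a of 0.70 (adjusted p = 0.429). In vehicle mice Trim12a was at 0, 0, 0.0658 and 0.0623 CPM in WT-D and 2.89, 3.63, 4.45 and 3.62 CPM in 3xTg-D, and in uninfused WT mice of 8 months at 0, 1.07, 0 and 0 CPM. One uninfused WT mouse, library 2, thus had a level above every other WT library of the series. These genes are close relatives of each other, and reads may be shared among them.

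The promoter windows of the 3 called Trim genes are shown because the family is known for interferon control. Each runs from 250 bases before to 50 bases from the gene's start, read along the gene, from RefSeq on GRCm38.p6. Capitals mark the interferon-stimulated response element pattern, GAAANNGAAA searched on both strands. In these 3 windows it stands on the opposite strand and so reads TTTC before and after 2 bases. The windows lie at chr7:104315446-104315745 (minus strand), chr7:104507800-104508099 (minus strand) and chr7:104244207-104244506 (plus strand).
Trim12a: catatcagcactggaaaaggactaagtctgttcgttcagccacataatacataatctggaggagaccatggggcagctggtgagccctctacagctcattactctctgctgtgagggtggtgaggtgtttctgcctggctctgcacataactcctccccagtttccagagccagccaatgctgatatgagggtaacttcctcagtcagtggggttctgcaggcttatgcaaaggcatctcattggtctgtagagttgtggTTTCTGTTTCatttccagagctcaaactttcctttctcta
Trim30d: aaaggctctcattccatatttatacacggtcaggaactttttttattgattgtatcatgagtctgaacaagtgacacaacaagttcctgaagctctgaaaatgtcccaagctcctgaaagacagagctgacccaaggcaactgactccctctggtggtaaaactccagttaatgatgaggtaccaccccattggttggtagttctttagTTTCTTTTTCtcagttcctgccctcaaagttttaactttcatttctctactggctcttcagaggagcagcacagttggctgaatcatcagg
Trim34a: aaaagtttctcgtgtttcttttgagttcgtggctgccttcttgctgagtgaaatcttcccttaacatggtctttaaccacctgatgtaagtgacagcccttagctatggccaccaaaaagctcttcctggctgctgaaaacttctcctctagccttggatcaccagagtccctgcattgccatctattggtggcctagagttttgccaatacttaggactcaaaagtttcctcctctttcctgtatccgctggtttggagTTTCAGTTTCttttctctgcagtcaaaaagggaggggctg
In Trim12a and Trim34a the pattern begins 10 bases after the start and in Trim30d 41 bases before it. It was found in 3.44% of 32851 promoter windows, in 7 of the 11 windows of this Trim cluster, which include those of Trim12c and Trim30a, genes that were not called, and in 8 of 161 windows of the called genes (4.97%), some of which have more than 1 start. The windows of B2m and Ctss hold it and those of C1qb, C1qc and Siglech do not hold these letters. A match describes letters and is not evidence of binding.

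For the myelin group, 4 of the 7 called genes had a promoter window: Mobp, Cldn11, Mal and Ugt8a. The core that Sox factors such as the oligodendrocyte factor SOX10 are known to bind, ACAAAG searched on both strands, occurred 6 times in the Mobp window and in none of the other 3. At least 1 match was found in 18.7% of all windows and in 29 of 161 windows of the called genes (18.0%). The Mobp window, chr9:120149492-120149791 on the plus strand, is printed to show this repetition, with the pattern in capitals on the opposite strand.
Mobp: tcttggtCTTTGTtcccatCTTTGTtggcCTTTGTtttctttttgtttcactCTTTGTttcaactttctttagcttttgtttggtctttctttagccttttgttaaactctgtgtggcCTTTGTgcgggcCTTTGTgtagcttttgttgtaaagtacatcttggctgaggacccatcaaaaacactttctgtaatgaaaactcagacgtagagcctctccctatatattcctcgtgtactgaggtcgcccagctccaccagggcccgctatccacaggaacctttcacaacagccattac
All 6 lie in the first part of the window, ahead of the start of the gene. Cldn11, Mal and Ugt8a, whose windows lack the letters, were called higher as Mobp was. Whether the pattern bears on any of these levels was not tested.

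The same strains compared under vehicle and at 8 months gave the direction of these differences in other mice, which share no library with the inhibitor contrast. Of the 206 called genes 193 were tested in 3xTg-D against WT-D, 192 of them had the same sign there, and 101 were called (49.0% of the 206, against 1.39% of all genes tested in that contrast). In 3xTg-8M against WT-8M 184 were tested, 181 had the same sign, and 96 were called (46.6%, against 2.58% of all genes tested). In all 3 contrasts 69 genes were called, among them Thy1, Gabra2, C1ql2, Ccl27a and Mcm6. The median size of the log2 fold change was 0.96 under inhibitor and 0.78 under vehicle for the genes tested in both, and genes chosen for a large difference in one set of mice tend to show a smaller one in another.

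Neither of the other contrasts called 78 of the 206 genes, 41 higher and 37 lower in 3xTg-S. All 7 myelin genes belong here, as do Siglech, C1qc, B2m, Wfs1, Scg2 and Scn2b. Of the 64 of them tested in both other contrasts, 61 had the same sign in both, with a median log2 fold change toward the same side of 0.40 under vehicle and 0.25 at 8 months, against a median size of 0.71 for the 78 under inhibitor. That these genes passed in one contrast and not in another does not show that the strain effect differed. The interaction between strain and drug, fitted over all 15 libraries of 10 months, tests this directly: no gene of 16262 passed by edgeR or by DESeq2's likelihood ratio test, and 377 had an unadjusted p under 0.05 (2.32%). Among the 206, which were chosen on libraries that also enter the interaction, 15 had an unadjusted p under 0.05.

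**Figure D4:**
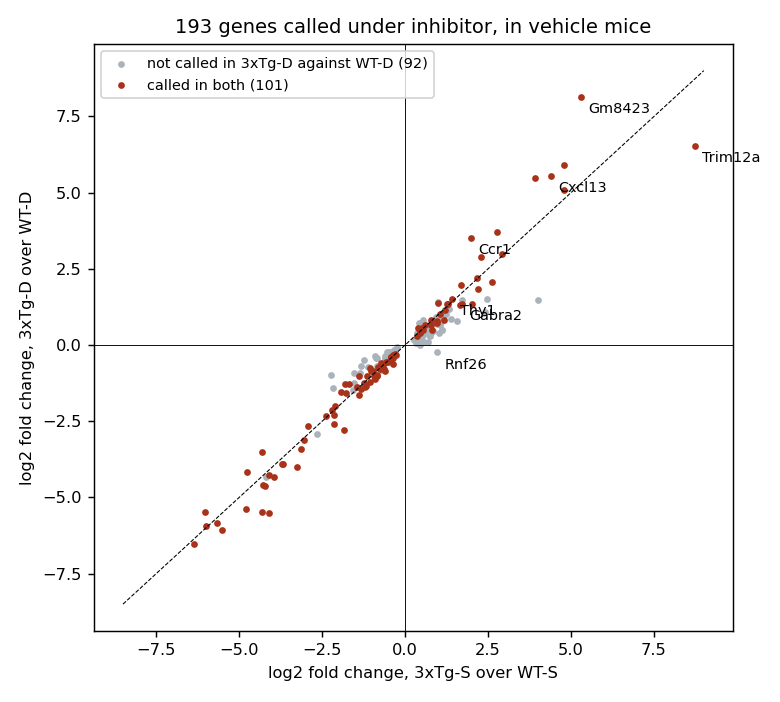
Log2 fold change of 193 called genes in 3xTg-S over WT-S (horizontal) and in 3xTg-D over WT-D (vertical), with the dashed line marking equal values. The 101 genes also called under vehicle are in red, nearly all points keep their sign, and Rnf26 is the 1 that does not.

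Rnf26, a ubiquitin ligase gene of the endoplasmic reticulum, had the smallest interaction p. It was at 2.16, 2.09 and 1.89 CPM in WT-S and 3.83, 4.38, 4.24 and 3.58 CPM in 3xTg-S, but at 3.93, 4.29, 3.22 and 3.8 CPM in WT-D and 2.89, 3.5, 3.05 and 3.55 CPM in 3xTg-D. It was thus the WT-S libraries that were low, and the other 20 libraries were higher than all 3 of them. The unadjusted interaction p was 2.46e-05 and the adjusted p 0.40. Gm8423, a processed pseudogene, came next, and then Fa2h, Riok3, Ankrd29 and Glb1, with unadjusted interaction p of 0.0096, 0.0168, 0.0172 and 0.0181. Ankrd29 was at 23.2 ± 5.16 CPM in WT-S and 37.4 ± 1.47 CPM in 3xTg-S, and had a log2 fold change of 0.11 in vehicle mice. Glb1, the lysosomal beta-galactosidase, rose from 16.3 ± 0.546 to 22.3 ± 0.737 CPM (adjusted p = 0.0115), and Riok3, a kinase of ribosome maturation, fell from 114 ± 11.4 to 81.5 ± 4.77 CPM (adjusted p = 0.00785).

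To place each mouse, every other library was set on a scale from the WT-S mean (0) to the 3xTg-S mean (1) of log2(CPM + 0.5) for each of the 206 genes. The 3xTg libraries of the other experiments lay nearer to 3xTg-S for 176 to 203 genes under vehicle and 182 to 201 at 8 months. The WT libraries lay nearer to 3xTg-S for 24, 52, 31 and 18 genes under vehicle and 46, 61, 49 and 64 at 8 months. At these genes the 3xTg mice of the other experiments thus resembled 3xTg-S, while each of the other WT mice departed from WT-S at 18 to 64 of the 206. The 206 genes were chosen because they separate WT-S from 3xTg-S, which favours such departures in other mice.

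In 1 stretch of chromosome 9, 3 WT libraries were nearer to 3xTg-S at most of the called genes. Between 40 and 51 Mb, limits set after the values were seen, 11 genes were called under inhibitor. At these WT-D library 2 was nearer to 3xTg-S for 10 of 11, WT-8M library 3 for 10 and WT-8M library 4 for 8, whereas WT-D library 1 was so for 1 and WT-D library 3 for 2. At the 195 called genes elsewhere these 3 libraries were nearer to 3xTg-S for 42, 39 and 56. Their departures were thus more numerous outside the stretch but made up a larger share of the genes inside it. The choice of stretch and libraries by these values favours that share. Hspa8 (chr9:40800984-40810087), the constitutive Hsc70 chaperone, was at 101, 367, 109 and 113 CPM in WT-D and 368, 335, 376 and 348 CPM in 3xTg-D. A single WT-D mouse, library 2, thus had the 3xTg level and the other 3 were far lower. Under inhibitor Hspa8 was at 249, 114 and 135 CPM in WT-S and 369, 323, 381 and 364 CPM in 3xTg-S, where WT-S library 1 lay between (log2 fold change 1.11, SE 0.21, adjusted p = 0.0253).

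Cryab (chr9:50751325-50756636), the small heat shock protein alpha-B crystallin, which is abundant in oligodendrocytes, was among these genes and was singled out after its values were seen. It was at 29.1, 69.3, 41.3 and 48.6 CPM in WT-D and 26.3, 54.3 and 34.5 CPM in WT-S, and at 74.7, 88.7, 71.2 and 75.4 CPM in 3xTg-S (adjusted p = 0.0186). Again WT-D library 2 was at the 3xTg level. Thy1 lies inside the stretch (chr9:44043384-44048579) and did not follow: all 11 WT libraries lay nearer to WT-S for it. Whether its reads in 3xTg mice come from this locus or from the transgenes was not tested. In the 40 to 50 Mb window 9 of 93 genes were called under inhibitor and 3 under vehicle, and the vehicle count was 8 without WT-D library 2. That library was left out because it lay at the 3xTg level here, so a rise in the count follows from the choice.

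Of the other windows, 3 are given here, chosen after their values were seen. At 0 to 10 Mb of chromosome 17, WT-D library 1 was nearer to 3xTg-S for 3 of 4 called genes and WT-D libraries 2, 3 and 4 for none, WT-S library 1 for 2, and vehicle mice had 1 call there. Tagap, a GTPase-activating protein of T cells, fell there from 5.32 ± 2.25 to 0.613 ± 0.221 CPM under inhibitor (adjusted p = 0.000504). At 30 to 40 Mb of chromosome 14, WT-8M libraries 2 and 4 were nearer to 3xTg-S for all 5 called genes, library 1 for 4 and library 3 for none. Gabra2, on chromosome 5, had 1 WT library of intermediate level in each of the other experiments, 205 CPM in WT-D library 2 against 98.5 to 123 CPM in the other 3. The window at 130 to 140 Mb of chromosome 1, with Chil1, Lgr6, Nav1 and Tnni1, had no WT library of any experiment nearer to 3xTg-S for any of 5 genes. Whether the WT mice varied in genotype at these windows was not tested.

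**Figure D5:**
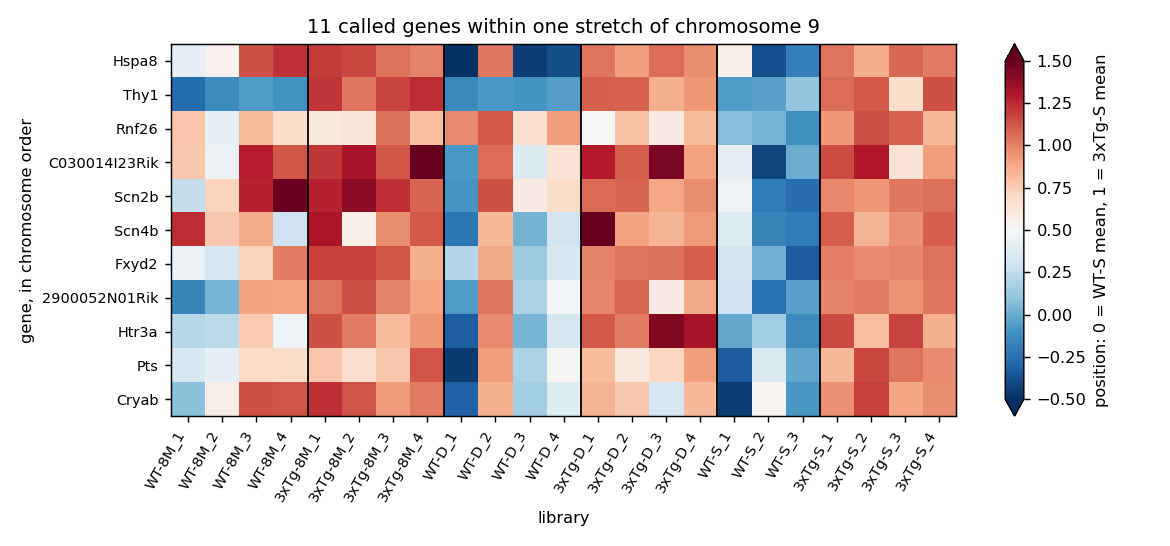
Position of each of the 23 libraries (columns, by group) between the WT-S mean (0, blue) and the 3xTg-S mean (1, red) of log2(CPM + 0.5) for the 11 called genes between 40 and 51 Mb of chromosome 9 (rows, in chromosome order). WT-D_2, WT-8M_3 and WT-8M_4 are red for most rows, whereas Thy1 is blue in every WT library.

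Among genes averaging 5 CPM or more, the 2 largest falls were those of a noncoding RNA and a processed copy. A830036E02Rik, a long noncoding RNA, fell from 22.6, 11.3 and 13.6 CPM to 0.123, 0.464, 0.0731 and 0.0676 CPM. Gm15459, a processed pseudogene, fell from 79.2, 146 and 168 CPM to 0.987, 4.84, 1.24 and 1.01 CPM. Pseudogenes share reads with their parent genes, so these values are uncertain. For Rps3a3 and Eno1b the strains did not separate by mouse: WT-S library 1 was at 0.154 and 0.616 CPM, near the 3xTg-S level, while WT-S libraries 2 and 3 were at 65.3 and 54.9 CPM for Rps3a3 and 23 and 28.4 CPM for Eno1b. Among the copies that rose, BC002163 was at 0.462, 0.649 and 0.725 CPM in WT-S and 12.8, 1.06, 12.6 and 14.7 CPM in 3xTg-S, so that 1 of 4 mice of the strain was near the WT-S level.

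Protein-coding genes with large falls were Ccl27a, a skin-homing chemokine, at 18.2, 17.7 and 22.5 CPM in WT-S and 2.34, 3.12, 1.9 and 1.96 CPM in 3xTg-S, and Mcm6, a subunit of the replicative helicase, at 20.1, 16.7 and 19.4 CPM and 4.01, 4.45, 4.24 and 4.73 CPM. Both were called in all 3 contrasts, with a log2 fold change of -3.13 under vehicle for Ccl27a. Ccl27a has near-identical copies in the mouse, so its value is uncertain. Among the large rises, Lgr6, a receptor for R-spondins, was at 3.62, 4.11 and 3.77 CPM in WT-S and 17.3, 14.2, 21.9 and 15.7 CPM in 3xTg-S. Stbd1, which tethers glycogen to membranes, rose from 1.93 ± 0.675 to 12 ± 0.727 CPM, Ldb3, a Z-disc protein, from 2.87 ± 0.251 to 9.1 ± 1.06 CPM, and Chil1, a chitinase-like protein of reactive astrocytes, from 8.2 ± 1.95 to 18.9 ± 1.48 CPM (adjusted p = 1.9e-05, 0.000133 and 0.000514). Of 63 oxidative phosphorylation genes 1 was called, and it was lower (background 0.702%). This was Cox7c, a cytochrome oxidase subunit with processed copies, which fell from 12.4 ± 1.6 to 6.54 ± 0.779 CPM (adjusted p = 0.00433). Of 72 ribosomal protein genes 2 were called, both higher (background 0.613%): Rpl29 rose from 11.4 ± 1.78 to 25.6 ± 2.05 CPM and Rpl30 from 33.4 ± 7.27 to 65.1 ± 4.27 CPM. Both lie in 10 Mb windows with 4 or more calls, Rpl29 at 100 to 110 Mb of chromosome 9 and Rpl30 at 30 to 40 Mb of chromosome 15. How far reads of processed copies enter their values was not tested.

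At an unadjusted p under 0.05, 5.43% of all genes tested were higher in 3xTg-S and 5.18% lower. Of 36 lists, 25 had no called member by edgeR. These include amyloid processing, with 2 genes higher and 3 lower of 21 at an unadjusted p under 0.05 and 1 lower by DESeq2's likelihood ratio test. Immediate-early genes, which report recent neuronal activity, had 1 lower of 21 at an unadjusted p under 0.05 and none by DESeq2, and interneuron and neuropeptide genes had 1 higher and 4 lower of 21, with 1 lower by DESeq2. The 14 tested genes of adult neurogenesis had 1 higher at an unadjusted p under 0.05 and the 20 clock genes 3 lower, none of either by DESeq2. The choroid plexus genes tested were all below 0 (8 of 8, none at an unadjusted p under 0.05), and their sum was 398.3 CPM in WT-S library 2 against 51.3 and 42.8 CPM in the other WT-S libraries. Ttr, their defining marker, was high in library 2 of each strain, at 8.62, 305 and 3.48 CPM in WT-S and 8.45, 210.0, 1.75 and 2.84 CPM in 3xTg-S. Genes of the meninges summed to 344 to 1215 CPM in WT-S and 207 to 1031 CPM in 3xTg-S, and ependymal genes to 61.0 to 65.0 CPM in WT-S and 53.5 to 71.6 CPM in 3xTg-S.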

How the data were processed

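RNA of whole hippocampi from 23 mice was measured as poly(A)-selected, single-end RNA-seq (KAPA mRNA HyperPrep, NextSeq500). Per the study's methods and the submitters' processing notes, the authors trimmed reads with Trimmomatic 0.35, aligned them with STAR 2.5.1b to GRCm38 and deposited raw read counts for each Gencode gene. The strand setting and the use of the UMI adapters are not given in the sources used here, so overlapping genes cannot be told apart by strand and counting error may include PCR copies. The 4 summary lines that name no gene, 24.8 to 27.5% of reads in the 7 libraries of the contrast, were left out of all totals. Groups came from the labels, and each library is 1 mouse.

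Counts were tested with edgeR's quasi-likelihood test (version 4.0.16, R 4.3.3) after filterByExpr and TMM scaling, with 3xTg-S and WT-S alone in the fit. Calls needed a p below 0.05 after Benjamini-Hochberg adjustment. The study itself used a DESeq2-based likelihood ratio test, and that test (DESeq2 1.42.0) was run as an alternative, together with other scaling, no filter, all 15 libraries of 10 months in one fit, a trend of length and GC removed, blocks of consecutive animal numbers, and each library left out. The test was checked on simulated counts. SE is the standard error of the log2 fold change as approximated from the quasi-likelihood fit, and printed CPM values use plain library totals. The gene lists and the comparisons were chosen with earlier results of these data known. Genes were named by rule: of the calls averaging 5 CPM or more, the 10 largest rises and 10 largest falls and the 5 with most reads each way; every called list member; all transgene loci and desaturases; up to 4 genes of each 10 Mb window with 4 or more calls; and the 6 smallest interaction p. A few genes that this rule covers are not reported here. Other called genes are marked in the text as singled out after their values were seen. Uncalled genes outside these groups, such as Mbp, P2ry12, Gfap and Snap25, were named as examples and not by this rule. Gene length and GC came from Gencode M21 for 99.7% of genes, and promoter windows from RefSeq on GRCm38.p6 for 127 of the 206 called genes.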

Additional observations from a re-analysis of the deposited data

Results flagged for a closer look

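In each of 102 genes that the naming rule covers the 4 3xTg-S libraries were examined for a value far from the rest, by the gap to the nearest library as a share of the group's whole range (Dixon's ratio, against its 95% critical value for groups of 4). Chance alone passes this for about 1 in 20 groups, and 9 of the 102 passed. For Gm15459 library 2 was at 4.84 CPM and the others at 0.987 to 1.24 CPM (gap share 0.934). For Gm1976 library 3 was at 4.75 CPM and the others at 6.22 to 6.37 CPM (gap share 0.906). For A830036E02Rik library 2 was at 0.464 CPM and the others at 0.0676 to 0.123 CPM (gap share 0.859). For Zfp429, a zinc finger gene, library 4 was at 0.338 CPM and the others at 0.123 to 0.146 CPM (gap share 0.894). For C1qb, a chain of complement C1q, library 3 was at 47.5 CPM and the others at 37.8 to 39.4 CPM (gap share 0.831). For BC002163 library 2 was at 1.06 CPM and the others at 12.6 to 14.7 CPM (gap share 0.847). For Zfp46, another zinc finger gene, library 2 was at 40.9 CPM and the others at 38.9 to 39.1 CPM (gap share 0.904). For Rps3a3 library 2 was at 2.79 CPM and the others at 0.0676 to 0.37 CPM (gap share 0.889). For Fads3, a fatty acid desaturase, library 3 was at 28 CPM and the others at 29 to 29.2 CPM (gap share 0.843). Library 2 was the far one in 5 of the 9, and it also stood apart in transcript length and blood genes, and the part of either in these values was not tested. Without library 2, Rps3a3 fell under the filter on low counts and the other 8 kept their direction.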

How the results depend on the processing

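The 206 calls of 3xTg-S against WT-S became 202 with DESeq2's size factors, 297 with DESeq2's likelihood ratio test on 30295 genes, without the filter on low counts, 211 with all 15 libraries of 10 months in one fit, 230 with the trend of length and GC removed, 729 without the filter on low counts and 649 at an unadjusted p under 0.01. Of these, 202, 196, 156, 188 and 206 calls of the first 5 were among the 206. Leaving out each library gave 105 to 286 calls. The labels do not say whether mice with consecutive title numbers were handled together. Deviations of libraries in the same run of consecutive numbers correlated at -0.25 to -0.01 over 3 pairs. Over 9 other pairs the correlations were -0.20 to 0.18. So few pairs cannot exclude a shared block. With such a run as a replicate block the count was 78. The 216 calls of 3xTg-D against WT-D became 414 with DESeq2's test and 792 without the filter, and 125 to 200 with each library left out. The 399 of 3xTg-8M against WT-8M became 712, 854 and 227 to 449. The interaction had 0 calls, 8 without the filter and 0 with any of the 7 inhibitor libraries left out (0 to 0). No log2 fold change of the 90 called genes that the naming rule covers changed sign under 13 alternatives, 43 of them were called under every one, and 258 of 1169 values missed the threshold. Of the uncalled desaturases, Scd2 ran from -0.107 to 0.00938 and Degs2 from -0.114 to 0.0728 as each library was left out, which crosses 0. The cause of these shifts was not tested, apart from the fewer libraries or the larger number of genes tested. With 3 and 4 mice, 56 of the 206 called genes differed by less than 1.5-fold.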
